A study of Mus musculus with 10 samples.

Results

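The forkhead (Fox) genes encode transcription factors that share a winged-helix DNA-binding domain and are sorted by sequence into lettered subfamilies. Members of the FoxA, FoxB, FoxC, FoxD, FoxE, FoxF and FoxL subfamilies pattern germ layers and organs and are mostly silent outside the tissue they specify, whereas FoxO, FoxK and FoxM factors act in many cell types on metabolism, stress responses and the cell cycle. In the eye, Foxd1 marks the temporal side of the early retina, Foxc1 and Foxc2 act in the mesenchyme of the anterior segment, and Foxe3 acts in the lens epithelium.

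The forkhead genes were chosen from the symbols of the deposited table that begin with Fox, a letter from a to s and a number, without Foxn4. The 42 genes described had 45 entries among 20045 symbols with 25152 entries. A gene with more than 1 entry was represented by the one whose 8 values summed highest. Of the 42 genes, 40 had a single entry and Foxp2 and Foxp4 had several.

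Whole mouse retina was analysed by ChIP-Seq for both H3K4me2 and H3K27me3 at embryonic day E17.5 and on the postnatal days PN1, PN7 and PN15, and every combination of mark and stage had 1 library. H3K4me2 is found at active and poised promoters, and H3K27me3 is deposited by the Polycomb complex at silent genes. Each stage was a pool of at least 20 retinas, described in the study's methods as wild type C57BL/6j. The strain label, by contrast, names Pde6b (rd1/rd1) mutant mice for every library, and the stage label of the embryo reads E17. The antibody catalogue numbers also differ between the labels and the methods, so the titles were followed for the mark of a library. By the labels, no allele or treatment distinguishes the 8 libraries, which differ only in mark and stage.

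The deposited value is the normalized occupancy, the reads within 2.5 kb on either side of a transcription start site (TSS) scaled to all reads mapped in that library and given as a whole number. Every window thus has the same length, so levels can be set side by side between genes. Values given 4 in a row follow the order of the stages from E17.5 to PN15. No condition had a second library. All errors below are exact Poisson 95% intervals for counting error only, and no test between stages was possible. The sums over all entries ranged from 590366 to 1200594, and 1 read was worth between 0.313 and 0.946 units of occupancy in the 5 libraries in which this could be recovered. In the other 3 libraries 1 read was worth at most 1 unit, which gives the widest possible interval. The H3K4me2 library of PN7 stood apart, with 19.45% of all entries at 0 against 0.08% to 3.70% in the other 7 libraries, and 6 of its zeros were at Foxi1, Foxn3, Foxp1, Foxp3, Foxr1 and Foxr2. All 12 retinal markers examined carried H3K4me2, with Crx at 20, 24, 21 and 158. The markers of other cell types that carried H3K4me2 were 2 of 5 for pigment epithelium, 4 of 6 for endothelium, 2 of 5 for microglia, 5 of 6 for lens, 1 of 4 for blood and 4 of 4 for astrocytes. Over all symbols, 77.6% carried H3K4me2 by the threshold given below. Tek with 3, 9, 1 and 5 and Crybb2 with 2, 8, 0 and 6 passed it narrowly. Which cell types were present is therefore not read from these counts. In a whole tissue, fewer cells of a type and less of a mark in each cell cannot be told apart.

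The bases before the start are shown for 5 genes chosen by the marks they carried, from the gene tied for the most H3K27me3 (Foxa2) through genes with both marks (Foxi3 and Foxo1) to a gene with H3K4me2 alone (Foxo3) and a gene with neither (Foxi1). They are the 250 bases ahead of the RefSeq start in GRCm38.p6, written 5′ to 3′ on the strand of the gene, with each CG dinucleotide in capitals. The positions are chr2:148046970-148047219 on the minus strand for Foxa2, chr6:70956356-70956605 on the plus strand for Foxi3, chr3:52268087-52268336 on the plus strand for Foxo1, chr10:42276696-42276945 on the minus strand for Foxo3 and chr11:34208090-34208339 on the minus strand for Foxi1.
Foxa2: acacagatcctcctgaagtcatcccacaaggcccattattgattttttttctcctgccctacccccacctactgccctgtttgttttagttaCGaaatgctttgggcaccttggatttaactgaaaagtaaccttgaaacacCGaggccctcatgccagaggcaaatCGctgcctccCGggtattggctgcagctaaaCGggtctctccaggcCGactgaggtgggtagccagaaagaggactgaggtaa
Foxi3: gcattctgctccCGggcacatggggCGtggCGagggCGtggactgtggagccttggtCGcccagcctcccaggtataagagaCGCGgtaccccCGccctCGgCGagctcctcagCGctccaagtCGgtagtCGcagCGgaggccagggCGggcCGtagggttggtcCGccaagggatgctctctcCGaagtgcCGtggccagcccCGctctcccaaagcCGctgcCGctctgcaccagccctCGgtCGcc
Foxo1: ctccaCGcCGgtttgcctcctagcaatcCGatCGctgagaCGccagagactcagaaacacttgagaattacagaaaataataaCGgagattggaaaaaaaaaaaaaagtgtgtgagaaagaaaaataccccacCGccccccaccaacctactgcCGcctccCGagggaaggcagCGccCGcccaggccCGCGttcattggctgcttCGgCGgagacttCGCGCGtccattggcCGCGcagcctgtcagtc
Foxo3: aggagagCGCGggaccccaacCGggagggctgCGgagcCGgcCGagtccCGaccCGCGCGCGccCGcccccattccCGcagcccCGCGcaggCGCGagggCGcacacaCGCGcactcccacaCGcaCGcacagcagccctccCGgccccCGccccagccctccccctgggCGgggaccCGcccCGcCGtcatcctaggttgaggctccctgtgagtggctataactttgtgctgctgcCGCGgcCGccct
Foxi1: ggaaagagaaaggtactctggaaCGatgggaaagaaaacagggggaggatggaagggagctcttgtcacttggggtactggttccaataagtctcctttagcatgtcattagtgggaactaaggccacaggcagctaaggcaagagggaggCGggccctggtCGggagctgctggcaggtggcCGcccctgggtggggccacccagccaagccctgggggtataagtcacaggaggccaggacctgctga
These 250 bases held 6 CG dinucleotides at Foxa2, 24 at Foxi3, 20 at Foxo1, 31 at Foxo3 and 4 at Foxi1. The short stretch before the Foxa2 start shown was thus nearly as poor in CG as that of Foxi1, although the 5 kb around the Foxa2 start held 241 and those around the Foxi1 start 79. RefSeq gives 3 promoters for Foxa2, and the stretch shown belongs to the one nearest the annotated start.

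Most forkhead genes carried both marks in the retina. A gene was taken to carry a mark when its mean over the 4 stages exceeded the 95th percentile of the same mean over 1053 entries of olfactory receptors, genes of the olfactory epithelium. This threshold was 3.75 for H3K4me2 and 23.3 for H3K27me3. H3K27me3 was carried by 28 of 42 forkhead genes (23.8% of all symbols) and H3K4me2 by 38 of 42 (77.6% of all symbols). Both marks were found at 27 genes (21.7% of all symbols), H3K4me2 only at 11 (55.9%), H3K27me3 only at 1, Foxr2 (2.06%), and neither mark at 3, Foxi1, Foxp3 and Foxr1 (20.3%). Of the 42 genes, 19 were among the 1002 symbols with the largest H3K27me3 mean, which make up 5.0% of all symbols.

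**Figure D1:**
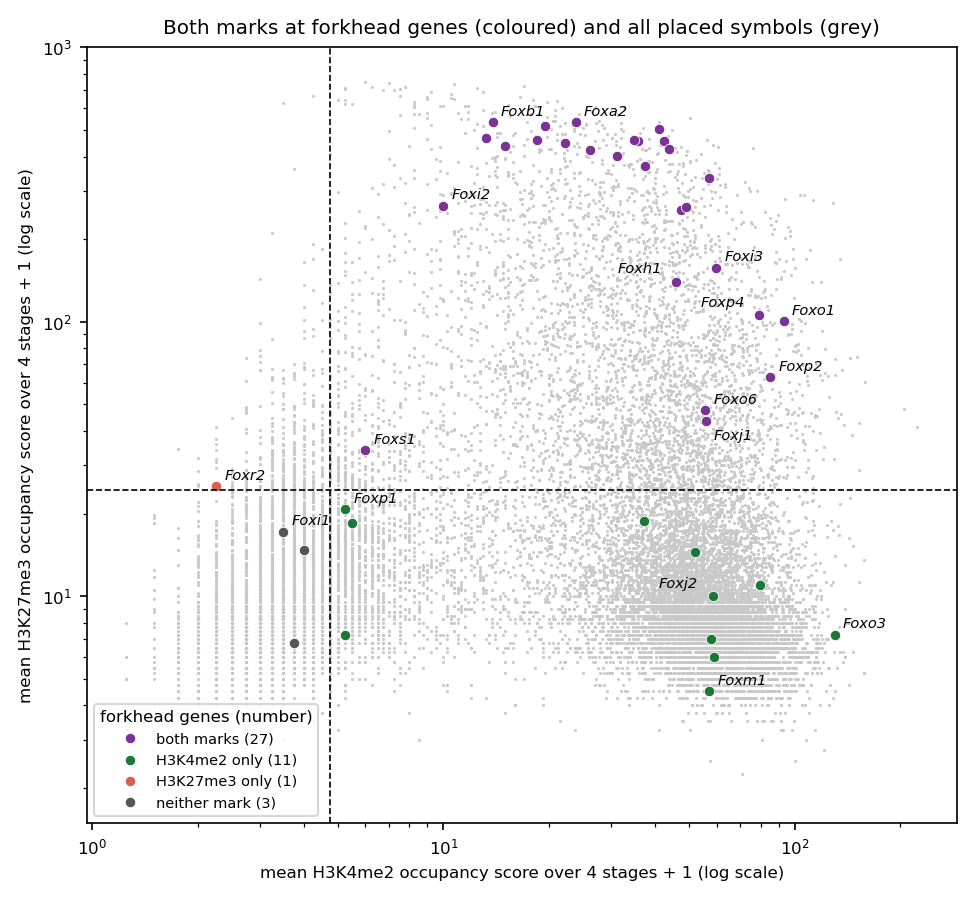
Mean H3K4me2 (x axis) and mean H3K27me3 (y axis) over 4 stages, both as occupancy score + 1 on log scales, for 42 forkhead genes (coloured by the marks they carry) and 19306 symbols placed in the genome (grey), with dashed lines at the olfactory receptor thresholds. A dense group of forkhead genes lies at H3K27me3 means of 253.5 to 534, the FoxO and FoxP genes with both marks lie lower, and 11 genes lie below the H3K27me3 line with H3K4me2 above its threshold.

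Genes close to the thresholds were few. For H3K27me3, Foxr2 with a mean of 24.2 lay just inside and Foxp1 with 19.8 just outside. For H3K4me2, Foxn3 and Foxp1 with 4.25 each, Foxn1 with 4.5 and Foxs1 with 5.0 lay just inside, and Foxr1 with 3.0 and Foxp3 with 2.75 just outside. Foxi3 with a mean of 156.5 ranked 1003rd in H3K27me3, the first rank outside the top 5.0%, whereas Foxa3, the lowest of the 19 genes inside, had a mean of 253.5 and rank 533.

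The 19 genes with the most H3K27me3 were regulators of early patterning and of organs, but other such regulators, among them Foxh1, Foxi1, Foxi3 and Foxn1, were not included. The 19 genes comprised 3 of 3 genes of endoderm and midline, the retinal patterning gene Foxd1, 4 of 4 of eye mesenchyme, lens and vessels, 4 of 5 of a group of gut and lung mesenchyme to which Foxq1 and Foxs1, known from other sites, were added, 5 of 5 of brain stem, neural crest and spinal cord, and 2 of 5 of epithelia, thyroid, ear and thymus. None of the 2 genes of ciliogenesis and embryo induction, the 4 FoxO, 4 FoxP and 6 broadly expressed genes, the 2 germ line genes or the cell cycle gene Foxm1 was among them. The role groups were chosen with earlier results of these data known, so these counts describe the family and are not independent support. The median H3K27me3 of these 19 genes was 469, 644, 447 and 206, against 307, 361.5, 261 and 133 over all 1002 symbols of the top 5.0%. The medians of the forkhead genes lay above those of the whole group at all 4 stages.

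**Figure D2:**
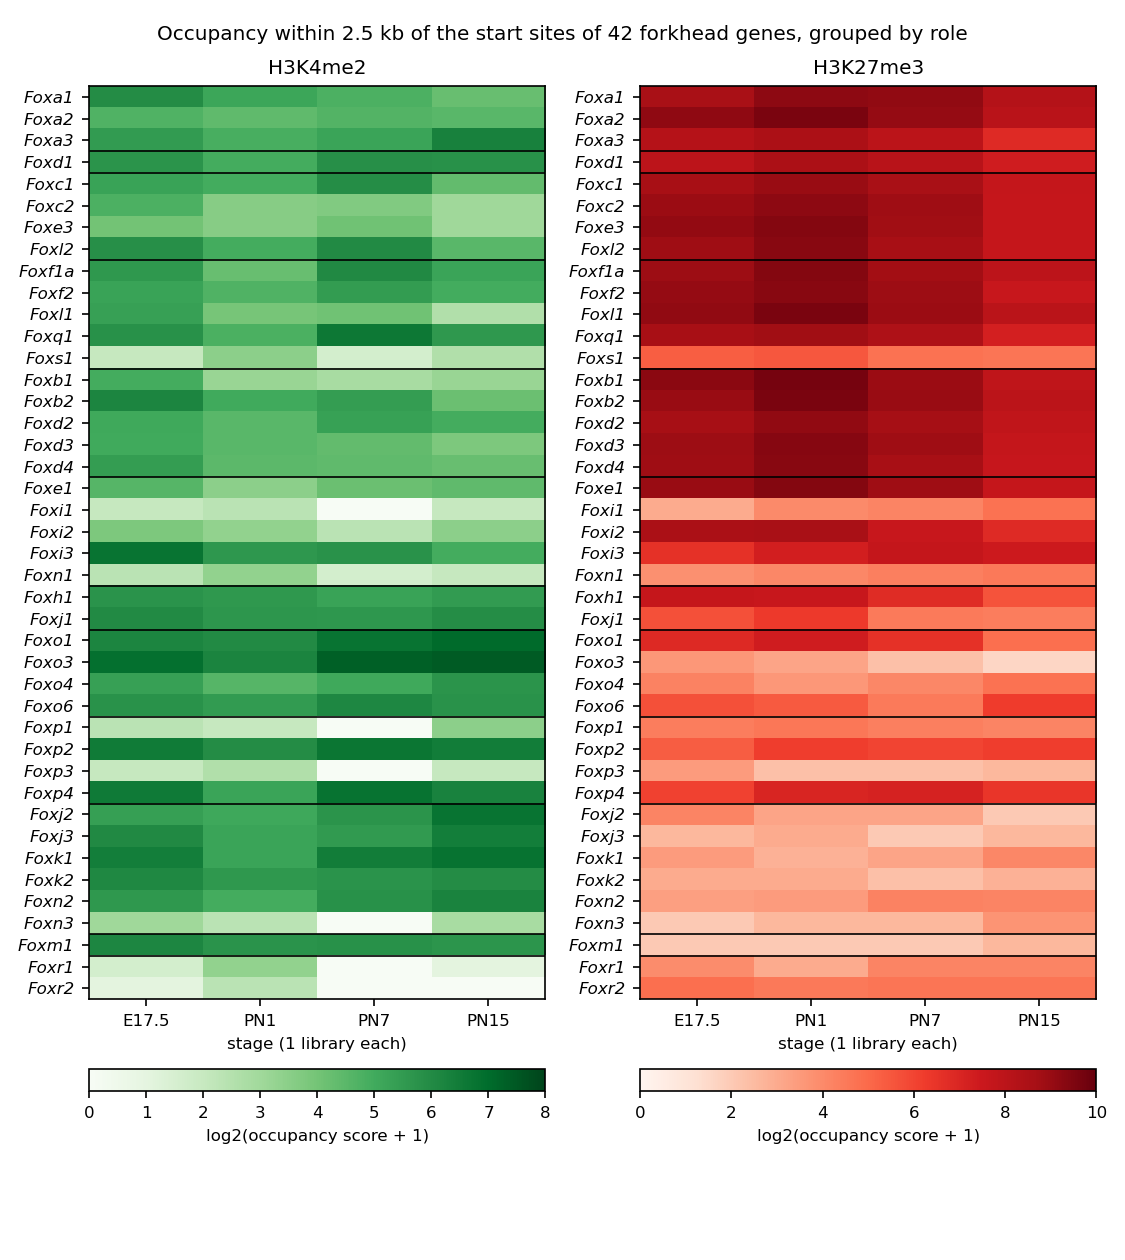
Occupancy of H3K4me2 (left, green) and H3K27me3 (right, red) at each of 42 forkhead genes (rows) in each of 8 libraries (columns, 1 per stage and mark), as log2(occupancy score + 1), with lines between groups of genes of like role. From top to bottom the groups are endoderm and midline, retinal patterning (Foxd1), eye mesenchyme and lens, gut and lung mesenchyme with Foxq1 and Foxs1, brain stem and neural crest, epithelia, ciliogenesis and induction, FoxO, FoxP, broadly expressed, cell cycle and germ line. H3K27me3 is dark in every gene of the upper 5 groups except Foxs1 and is darkest at PN1.

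Among the FoxA genes, which open chromatin in liver, lung and gut endoderm, Foxa2 of the floor plate and notochord had the most H3K27me3, with 578, 766, 523 and 269, and H3K4me2 of 25, 20, 24 and 22. Foxa1 had 383, 584, 558 and 296 of H3K27me3 and 61, 34, 26 and 18 of H3K4me2. Foxa3 had 288, 362, 253 and 111 of H3K27me3 and 44, 28, 36 and 78 of H3K4me2, and thus ended with more H3K4me2 than either paralogue although all began within 25 to 61. The 5 kb window of Foxa3 also holds the start of Sympk, whose reads cannot be separated from those of Foxa3.

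The genes of brain stem, neural crest and spinal cord were as heavily marked. Foxb1, a gene of the hypothalamus and spinal cord, had 609, 810, 482 and 235 of H3K27me3, the same mean of 534 as Foxa2, and H3K4me2 of 29, 8, 6 and 8. Its paralogue Foxb2 had 495, 765, 500 and 254 of H3K27me3 with more H3K4me2, at 71, 31, 42 and 17. Foxd3 of the neural crest, Foxd4 of the neural plate and Foxd2 had H3K27me3 means of 447, 423 and 400. In the mesenchyme of gut and lung, Foxl1, which the mouse annotation lists as a pseudogene, had 557, 764, 484 and 263 of H3K27me3 and H3K4me2 of 39, 14, 16 and 5, and Foxf2 had 524, 641, 476 and 192 with 37, 25, 43 and 30. Foxf1a, Foxf2's paralogue, had an H3K27me3 mean of 455 and Foxq1 had 392, 453, 340 and 147 of H3K27me3 with 54, 27, 96 and 47 of H3K4me2. Foxs1, placed in the same group, differed from the others, with 38, 44, 26 and 24 of H3K27me3 and 3, 10, 2 and 5 of H3K4me2.

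Of the genes that act in the eye outside the neural retina, Foxe3 of the lens epithelium had 544, 668, 447 and 205 of H3K27me3 and 15, 11, 16 and 7 of H3K4me2. Foxc2 had 480, 594, 458 and 206 of H3K27me3, a mean of 434, while Foxl2 of eyelid and ovary had a mean of 426 and Foxc1 of 368. The retinal patterning gene Foxd1 was lower, with 248, 361, 278 and 161 of H3K27me3 and 51, 29, 57 and 55 of H3K4me2. Its H3K27me3 was thus present at every stage, including E17.5.

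The epithelial genes did not share one state. Foxe1 of the thyroid had 503, 667, 465 and 202 of H3K27me3 with 23, 10, 17 and 20 of H3K4me2. The 3 Foxi genes differed among themselves. Foxi2 had 375, 377, 193 and 111 of H3K27me3 with little H3K4me2, at 13, 9, 4 and 10. Foxi3 of the ectodermal placodes had 95, 149, 210 and 172 of H3K27me3 and 105, 48, 53 and 29 of H3K4me2. Foxi1 of the inner ear carried neither mark, with H3K4me2 of 3, 4, 0 and 3 and H3K27me3 of 7, 15, 17 and 26, although with vomeronasal receptors as background Foxi1 and Foxr1 carried H3K27me3, as did Foxn1, Foxn2, Foxo4 and Foxp1. Foxn1, the regulator of thymic epithelium, had 4, 9, 2 and 3 of H3K4me2 and 13, 16, 19 and 22 of H3K27me3.

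High H3K4me2 without H3K27me3 was found at genes that act in many cell types. Foxo3, a target of insulin signalling through Akt, had 114, 73, 157 and 172 of H3K4me2, rank 46 of all symbols, and 11, 8, 4 and 2 of H3K27me3. Foxk1 had 84, 36, 87 and 108 of H3K4me2 with 10, 6, 8 and 16 of H3K27me3, Foxj3 had 65, 36, 45 and 85 with 5, 7, 3 and 5, and Foxj2 had 40, 33, 51 and 106 with 17, 8, 8 and 3. Foxk2, Foxn2, Foxo4 and the cell cycle gene Foxm1, a driver of mitotic genes, also carried H3K4me2 only, with H3K4me2 means of 56.8, 51.2, 36.2 and 56.2. Foxn3 belonged to the same class by a small margin. The window of Foxm1 also holds the start of 5930416I19Rik, that of Foxj3 the start of AA415398 and that of Foxj2 the start of Gm4485.

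A smaller set had high H3K4me2 together with moderate H3K27me3. Foxo1, the FoxO gene best known from liver and vessels, had 71, 63, 105 and 129 of H3K4me2 and 116, 160, 96 and 27 of H3K27me3. Foxo6, a FoxO gene of the brain, had an H3K4me2 mean of 54.5 and H3K27me3 of 50, 42, 21 and 74. Among the FoxP genes, which are expressed in neurons and lung, Foxp2 had 90, 61, 100 and 86 of H3K4me2 and 39, 73, 63 and 73 of H3K27me3, and Foxp4 had 93, 36, 108 and 76 with 67, 129, 139 and 84. Foxj1 of motile cilia had an H3K4me2 mean of 54.8 and H3K27me3 of 50, 79, 21 and 20, and Foxh1, the Smad partner in Nodal signalling, had 52, 47, 37 and 44 of H3K4me2 with 205, 194, 109 and 48 of H3K27me3. The window of Foxh1 also holds the start of Ppp1r16a.

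The genes of T cells and germ line had little of either mark. Foxp3 of regulatory T cells had H3K4me2 of 3, 5, 0 and 3 and H3K27me3 of 10, 4, 4 and 5. Foxr1 had 2, 9, 0 and 1 with 14, 7, 17 and 17, and Foxr2 had 1, 4, 0 and 0 with 27, 22, 24 and 24. Where H3K4me2 was 0 at PN7 or PN15, the 95% counting interval reached 3.69 units.

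From E17.5 to PN15, H3K27me3 was at least 2-fold lower at 16 forkhead genes and at least 2-fold higher at 0, relative to the median of all symbols. A change is given as log2((later + 1)/(earlier + 1)) minus the median over all symbols, and was called when it was at least 2-fold in a gene carrying the mark. For H3K27me3, 16 of 28 genes were called lower (32.0% of all symbols with the mark) and 0 higher (8.79%). The median change was -1.13, against -0.53 over the 4767 symbols with the mark. The counting intervals of the 2 stages, set on the same centre, did not overlap, with the later one lower, for 22 of 28 genes (42.1% of all symbols with the mark), and did not overlap with the later one higher for 2, Foxi3 and Foxp2 (9.9%). The median symbol did not change (0.00), but of the 1002 symbols of the top 5.0%, 985 lay below 0. Their median change was -1.21, and over the 19 forkhead genes among them the changes ran from -1.75 to -0.37. Relative to the symbols carrying the mark, 3 genes were called lower (12.0% of those symbols), Foxh1, Foxi2 and Foxo1, and 3 higher (17.1%), Foxi3, Foxo6 and Foxp2. Relative to the top 5.0%, 0 were lower (3.4%) and 5 higher (38.3%), the latter being Foxi3, Foxo6, Foxp2, Foxp4 and Foxr2.

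Among the genes carrying H3K27me3, the lowest values were at Foxh1 (-2.07), Foxo1 (-2.06), Foxi2 (-1.75), Foxf2 (-1.44) and Foxq1 (-1.41). The counting intervals for Foxh1 ran from 178 to 235 at the first stage and from 36.2 to 62.5 at the last, and those for Foxo1 from 95.9 to 139 and from 18.4 to 38.4. Of the 19 genes of the top 5.0%, Foxa1 kept the most H3K27me3 relative to E17.5, with a change of -0.37 that lay above 95.7% of the top 5.0%. Foxd1 at -0.62 lay above 90.2%, while Foxi2 lay above only 10.1%. At E17.5 Foxa2 with 578 (532 to 627) was above Foxa1 with 383 (346 to 423). At PN15 Foxa1 with 296 (265 to 329) and Foxa2 with 269 (240 to 301) could not be told apart within counting error, and Foxa3 with 111 (92.4 to 132) was clear of both.

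Foxi3 and Foxp2 had non-overlapping intervals in the other direction. At Foxi3, H3K27me3 stood at 95 (76.9 to 116) in the embryo and at 172 (149 to 198) on PN15, a change of 0.85 that did not reach 2-fold. At Foxp2 it was 39 (27.7 to 53.3) and 73 (58.5 to 90.8), a change of 0.89. Foxo6 at 0.56 and Foxp4 at 0.32 had overlapping intervals.

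H3K4me2 fell at 11 forkhead genes, which belonged to the endoderm, eye mesenchyme, gut mesenchyme, brain stem and epithelial groups. From E17.5 to PN15, 11 of 38 genes were called lower (9.81% of all symbols with the mark) and 2 higher (4.02%), with a median change of -0.33 against 0.05 over all symbols with the mark. Of the 11 genes, 10 were among the 19 of the top 5.0% for H3K27me3 and the other was Foxi3. Over all symbols of the top 5.0%, 336 of the 993 with H3K4me2 were called lower (33.8%), and the median change was -0.61 against -1.06 over the 19 forkhead genes. The median symbol itself moved by 0.13, which is subtracted here. The counting intervals were apart and lower for 10 genes (9.56%), which are the called genes without Foxe3, and apart and higher for 4 genes, Foxa3, Foxj2, Foxo1 and Foxo3 (9.7%). The genes called lower were Foxl1 (-2.87), Foxb2 (-2.13), Foxi3 (-1.95), Foxc2 (-1.89), Foxb1 (-1.87), Foxa1 (-1.84), Foxl2 (-1.47), Foxd3 (-1.33), Foxd4 (-1.31), Foxe3 (-1.13) and Foxc1 (-1.06).

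**Figure D3:**
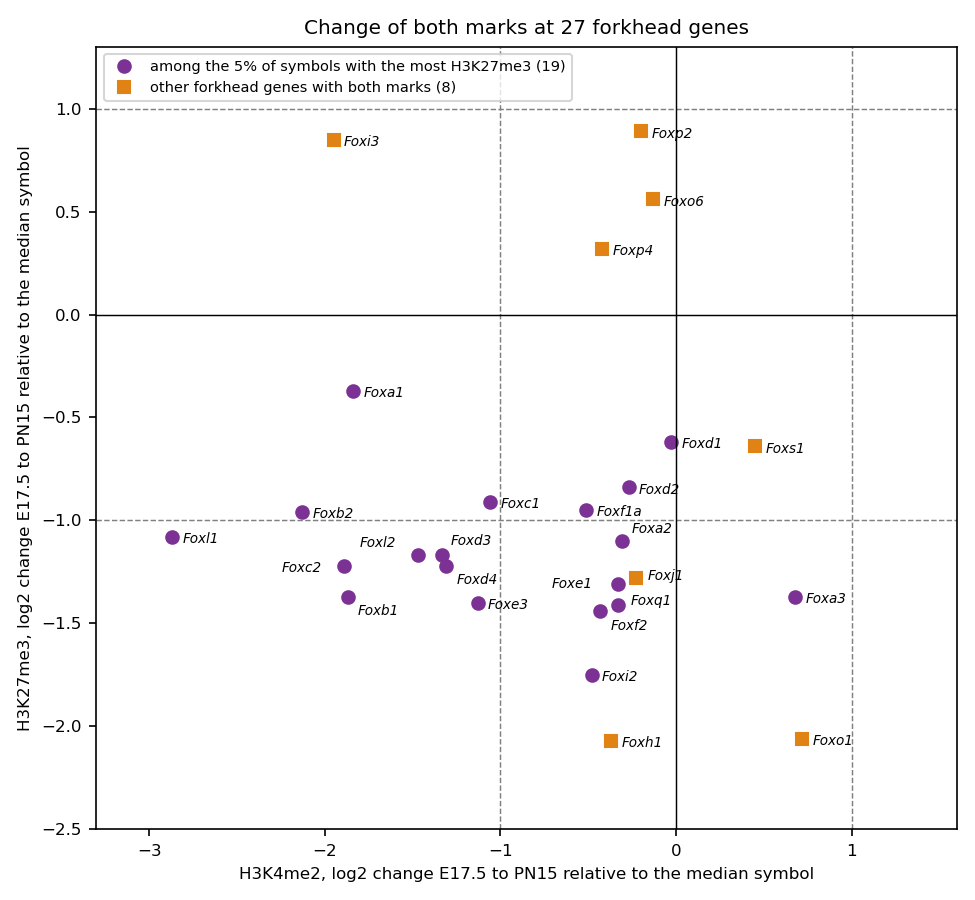
Change from E17.5 to PN15 of H3K4me2 (x axis) and H3K27me3 (y axis) at 27 forkhead genes with both marks, each as log2 relative to the median symbol, with circles for genes among the 5.0% of symbols with the most H3K27me3, squares for the others and dashed lines at a 2-fold change. The circles lie at H3K27me3 changes of -0.37 to -1.75 but spread from -2.87 to 0.68 in H3K4me2, while Foxi3 lies alone at the upper left and Foxo1 and Foxa3 lie at the lower right.

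All 4 genes of eye mesenchyme, lens and vessels were called lower in H3K4me2, although Foxc1 and Foxe3 were not called with a pseudocount of 5 and Foxc1 was not called without centring. Foxc2 had 26, 11, 12 and 7, and Foxc1 had 37, 30, 60 and 19, so that Foxc1 was highest at PN7 and lowest at PN15. The summed H3K4me2 of the endothelial markers, not centred, was 184, 137, 90 and 96 over the 4 stages, and that of the lens markers 49, 55, 24 and 33. Pecam1, Tie1 and Lim2 among them did not carry the mark. Kdr gave 112, 84, 55 and 70 of the endothelial sum, and Tek and Crybb2 ended above their values at E17.5. The lens markers were at 20 or less, and their sum fell into PN7, the library that stood apart. The part of endothelium and lens in the lower values at Foxc1, Foxc2, Foxe3 and Foxl2 was not tested. In the brain stem and neural crest group, 4 of 5 genes were lower, Foxd2 at -0.27 being the other one. The gut and lung group held 1, Foxl1, with H3K4me2 of 39 (30.6 to 49.2) in the embryo and of 5 (1.62 to 11.7) on PN15. The retinal patterning gene Foxd1, at -0.03, was not among the called genes.

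The 2 genes called higher were Foxj2 (1.25), whose embryonic value was 40 (31.6 to 50.3) and whose last value was 106 (86.8 to 128), and Foxp1 (1.0), with 4, 3, 0 and 10 of H3K4me2 and 20, 23, 19 and 17 of H3K27me3. The intervals of Foxp1 at E17.5 (1.51 to 7.72) and PN15 (4.80 to 18.4) overlapped, and its call rested on few reads. Foxp1 passed the H3K4me2 threshold only through PN15, its mean over the other 3 stages being 2.33, so that its call was fixed by the filter. Foxo1 at 0.72, Foxa3 at 0.68, Foxo3 at 0.46 and Foxn2 at 0.53 did not reach 2-fold.

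Taking both marks, Foxb1, Foxc2, Foxd3, Foxd4, Foxe3, Foxl1 and Foxl2 were called lower in both (5.56% of all symbols with both marks). Relative to the symbols carrying the mark, none of these 7 genes, nor Foxa3, was called lower in H3K27me3. Foxa1, Foxb2, Foxc1 and Foxi3 were called lower in H3K4me2 but not in H3K27me3. Of these, Foxa1 (-0.37), Foxb2 (-0.96) and Foxc1 (-0.91) still had non-overlapping, lower H3K27me3, and only Foxi3 had non-overlapping, higher H3K27me3. Foxo1 and Foxa3 combined a called fall in H3K27me3 with non-overlapping, higher H3K4me2. At Foxo1 the order of the marks turned, with 116 of H3K27me3 and 71 of H3K4me2 at E17.5 and 27 and 129 at PN15. At Foxi3 the values were 95 and 105 at E17.5 and 172 and 29 at PN15. Each mark was measured with its own antibody, so a level of one is not a level of the other, and these orders compare stages and not marks.

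**Figure D4:**
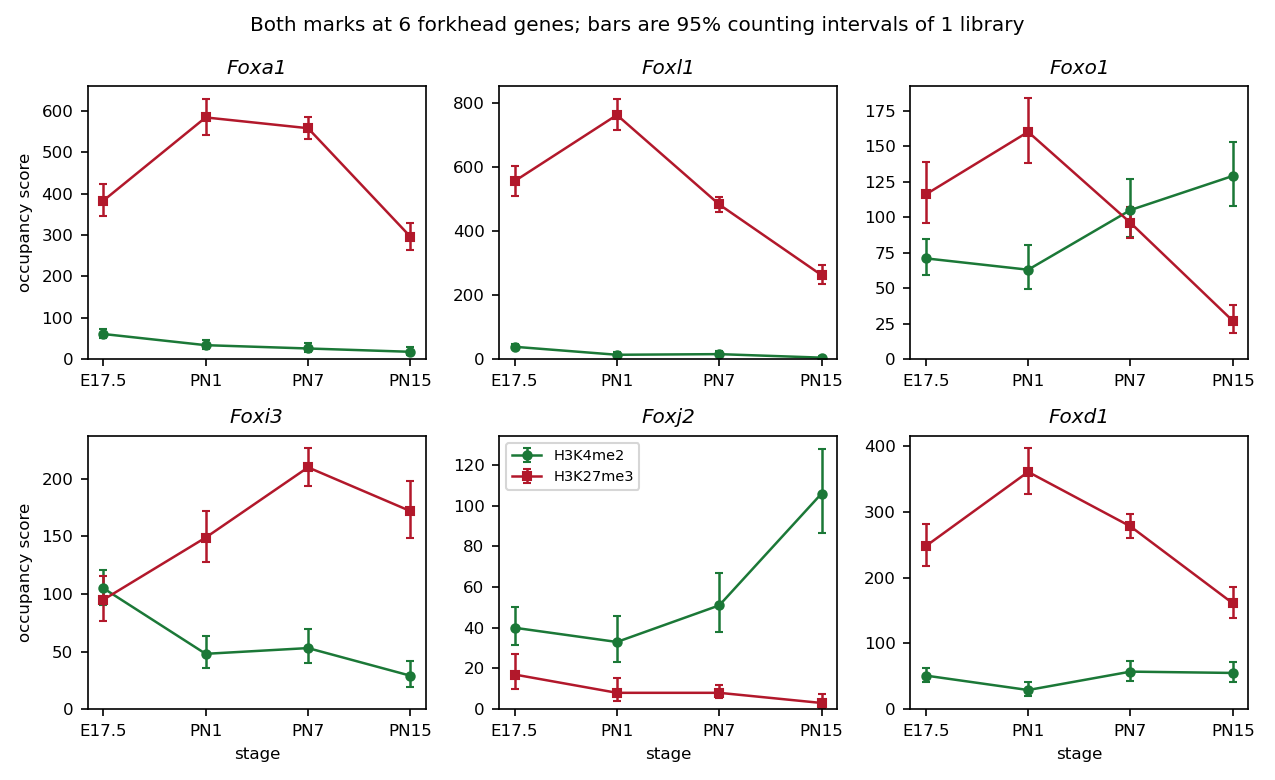
Occupancy score of H3K4me2 (green circles) and H3K27me3 (red squares) by stage (x axis, E17.5 to PN15) for 6 forkhead genes, 1 library per point, with bars for the 95% counting interval. The curves cross in opposite directions at Foxo1 and at Foxi3, where H3K4me2 and H3K27me3 go from 105 and 95 to 29 and 172, and at Foxa1, Foxl1 and Foxd1 H3K27me3 stays above H3K4me2 throughout.

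The deposited H3K27me3 values did not change steadily with age. The largest was at PN1 in 23 of 28 genes, against 51.2% of all symbols with the mark, with ties given to the earlier stage. These values are not centred. The sums over all entries of the H3K27me3 libraries, 854731, 980808, 790454 and 590366, were also largest at PN1 and lowest at PN15. Foxp2, with 73 at both PN1 and PN15, was the 1 tie among the 28. Over the top 5.0% the largest value was at PN1 in 87.1% of symbols, and in all 19 forkhead genes among them. From E17.5 to PN1 0 genes were called lower (0.252% of all symbols with the mark) and 0 higher (2.03%), the median change being 0.43 against 0.22 over all symbols with the mark and 0.27 over the top 5.0%. From PN1 to PN7 1 gene was called lower, Foxj1 with 79 and 21 (6.34%), and 0 higher (7.32%). From PN7 to PN15 11 genes were called lower (22.1%), Foxa3, Foxb1, Foxc2, Foxd3, Foxd4, Foxe1, Foxe3, Foxf2, Foxh1, Foxo1 and Foxq1, and 1 higher, Foxo6 with 21 and 74 (3.13%). Relative to the symbols carrying the mark, 1 gene was called lower in that step (3.78%). The median change of the 28 genes was -0.37 from PN1 to PN7 and -0.91 from PN7 to PN15, against -0.32 and -1.01 over the top 5.0%.

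For H3K4me2, the steps on either side of PN7 depended on the library that stood apart. From E17.5 to PN1, Foxb1 and Foxl1 were the 2 genes called lower (0.842% of all symbols with the mark), and Foxn1 and Foxs1, both at 10 or less, the 2 called higher (4.29%). Foxn1 and Foxs1 passed the threshold only through PN1, with means of 3.0 and 3.33 over the other 3 stages, so that their higher value at PN1 and their lower value afterwards were fixed by the filter. From PN1 to PN7, 4 genes were called lower (11.7%), Foxn1, Foxn3, Foxp1 and Foxs1, and 17 of 38 higher (2724 of all 15562 symbols with the mark). From PN7 to PN15, 20 were called lower (17.4%) and 2 higher (9.93%), the latter being Foxn3 and Foxp1. Foxn3, with 7, 4, 0 and 6, was likewise below the threshold without E17.5 or without PN15, so that nothing is read from the calls of these 4 genes. The median over all symbols moved by -0.50 into PN7 and by 1.0 out of it. Without subtracting it, 6 genes were higher from PN1 to PN7 (5.15% of all symbols with the mark), 6 were lower (2.02%) and 6 higher (44.7%) from PN7 to PN15, and 9 were lower from E17.5 to PN1 (6.82%). Foxq1 with 27, 96 and 47 at PN1, PN7 and PN15, Foxf1a with 18, 65 and 36 and Foxc1 with 30, 60 and 19 nevertheless had their highest deposited value at PN7. Of the 38 genes, 16 were highest in H3K4me2 at E17.5 (30.7% of all symbols with the mark), 2 at PN1 (6.04%), 11 at PN7 (7.06%), the library that stood apart, and 9 at PN15 (56.2%).

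Other families of developmental regulators carried H3K27me3 at a larger share of their genes. All 39 Hox genes and 45 of 49 Nkx, Lhx, Irx, Pax, sine oculis homeobox and Gata genes carried H3K27me3, and all 39 and 39 of 49 were in the top 5.0%. From E17.5 to PN15 their median H3K27me3 changes of -1.12 and -1.05 were close to the -1.13 of the forkhead genes, whereas their median H3K4me2 changes of -1.59 and -1.18 were lower than -0.33. The 19 forkhead genes of the top 5.0%, the class that holds most genes of the other families, had a median H3K4me2 change of -1.06. These differences between families were not tested, since genes are not replicates.

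Genes that act with the FoxO factors were examined beside the family. Of 34 genes of insulin and Akt signalling, FoxO partners and FoxO targets, 31 carried H3K4me2 and 9 carried H3K27me3 (77.6% and 23.8% of all symbols), and 23 carried H3K4me2 only (55.9%). In H3K4me2, 0 of the 31 were called lower (9.81% of all symbols with the mark) and 0 higher (4.02%) from E17.5 to PN15, with a median change of 0.17. In H3K27me3, 2 of the 9 were called lower (32.0%), the transcription factors Bcl6 with 104, 146, 77 and 38 (-1.43) and Klf2 with 196, 312, 188 and 79 (-1.30). One, the insulin receptor substrate Irs1, was called higher (8.79%) with 6, 20, 86 and 108, a change of 3.96. Relative to the symbols carrying the mark, whose median change was -0.53, the falls at Bcl6 and Klf2 did not reach 2-fold. Bcl6 and Klf2 had their highest value at PN1, as did Foxo1 with 160 and 51.2% of all symbols with the mark. Among the 9 genes, Pik3cb and Fbxo32 were also highest at PN1, whereas Irs1, Sgk1, Bcl2l11 and G6pc were highest later. Bbc3 had 26 at both PN1 and PN15.

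All 42 genes could be placed in mm9, the build of the deposited table, and the 5 kb windows are centred on the start and so cover the promoter and the first part of the gene. Foxo1 lies at chr3:52072259-52154031 and Foxi3 at chr6:70906525-70911060, both on the plus strand, and Foxa1 at chr12:58641618-58647108 on the minus strand. Several forkhead genes lie next to one another. On chromosome 8, Foxf1a (start at 123608286), Foxc2 (123640071) and Foxl1 (123651840) follow each other at distances of 31.8 kb and 11.8 kb. Their H3K27me3 was 472, 480 and 557 at E17.5 and 244, 206 and 263 at PN15. At PN1 Foxl1 with 764 (716 to 814) lay above Foxf1a with 666 (621 to 714) and Foxc2 with 594 (552 to 639). The H3K4me2 changes were -0.51 at Foxf1a, -1.89 at Foxc2 and -2.87 at Foxl1. On chromosome 4, Foxd2 and Foxe3 lie 17.2 kb apart with H3K27me3 of 405 and 544 at E17.5, and their H3K4me2 changes were -0.27 and -1.13. On chromosome 13, Foxq1 and Foxf2 lie 67.6 kb apart with H3K4me2 changes of -0.33 and -0.43, and Foxc1 follows after 180.8 kb with -1.06. No windows of neighbouring forkhead genes overlapped, so the same reads were not counted for both. Starts of other genes lay within the windows of further members, whose reads cannot be separated from theirs. These were A530084C06Rik at Foxq1, annotated as protein coding, RP24-337A16.1 at Foxo1, Foxl2os at Foxl2, B230323A14Rik at Foxb1, 9130206I24Rik at Foxd2, 1110050K14Rik at Foxf1a, Gm12446 at Foxe1, Gm15556 at Foxp4, and Gm12688 and a miRNA at Foxd3.

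The choice of start site mattered for Foxp2, the 1 gene whose entries differed. Of the transcripts in the annotation, 14 of 19 for Foxp2 and 11 of 16 for Foxp1 begin outside the 5 kb around the annotated start. So do 4 of 5 for Foxk2, 4 of 6 for Foxm1, 3 of 9 for Foxp4, 1 of 2 for Foxn3 and Foxr2, 1 of 4 for Foxp3 and 1 of 9 for Foxj3. The second Foxp2 entry of the table had 89, 56, 8 and 22 of H3K4me2 and 13, 19, 31 and 31 of H3K27me3, so that H3K4me2 at PN15 was 86 in one entry and 22 in the other. The low H3K4me2 values of Foxp1 and Foxn3 were each measured at 1 entry. The 3 entries of Foxp4 were identical.

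The windows around the annotated starts differed widely in CpG content. The table does not give the start behind each entry. For genes with transcripts that begin elsewhere, such as Foxk2, Foxm1, Foxn3, Foxp1 and Foxp2, the annotated window may not be the one in which the marks were measured. The 5 kb around the annotated start in mm9 held a median of 193.5 CpG over the 42 genes and of 102 over 19306 placed symbols. The 19 genes of the top 5.0% held 107 to 345 with a median of 276, the 11 genes with H3K4me2 only a median of 149, the 8 other genes with both marks 177.5 and the 4 genes with neither mark or H3K27me3 only 25 to 86. Foxo3 had the most CpG of the family, 385, and an H3K27me3 mean of 6.25, whereas Foxo1 with 322 had 99.8 and Foxe1 with 345 had 459. At the other end, Foxi2 had 107 CpG with an H3K27me3 mean of 264. Over the 42 genes Spearman's rank correlation between CpG number and mean H3K27me3 was 0.57 and with mean H3K4me2 0.36, while over all placed symbols these were 0.11 and 0.76. For H3K27me3 it was -0.08 within the 19 genes of the top 5.0%, -0.12 within the 11 with H3K4me2 only and 0.19 within the 8 others with both marks. The value of 0.57 thus did not recur within these classes. These are descriptions across genes whose values share the same 8 libraries. For Foxk2 the RefSeq start lies 4493 bp from the annotated one, and its 48 CpG, which enter these medians and correlations, refer to the latter.

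**Figure D5:**
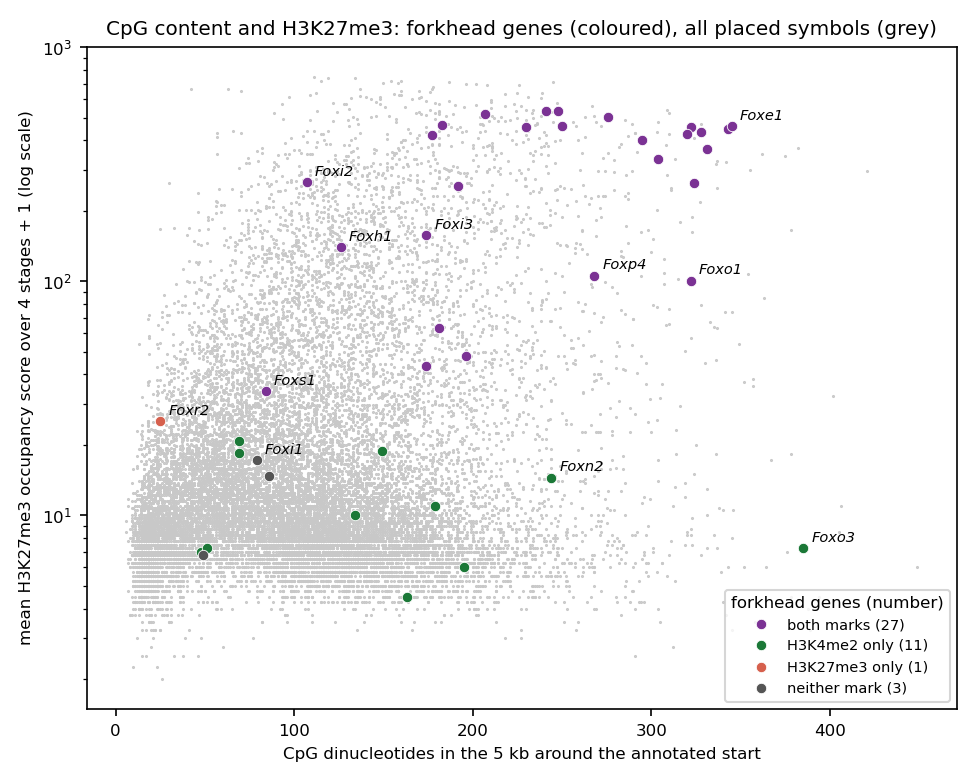
CpG dinucleotides in the 5 kb around the annotated start in mm9 (x axis) and mean H3K27me3 occupancy score + 1 over 4 stages (y axis, log scale) for 42 forkhead genes, coloured by the marks they carry, and 19306 placed symbols in grey. Foxo3 at 385 CpG lies far below Foxe1 at 345, and the genes with neither mark lie at 86 CpG or fewer.

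RefSeq promoters of 300 bases were matched to 27 of the 42 genes (64.3%), which is below the 80% needed for a comparison, so no comparison of promoter motifs is given.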

How the data were processed

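Chromatin of at least 20 pooled retinas per stage was digested, immunoprecipitated and sequenced by the authors, who mapped the reads with Bowtie 0.12.4 to mm9, dropped reads with several positions and assumed a fragment of 190 bp. The deposited values are scores, namely normalized occupancy within 2.5 kb of RefSeq starts, scaled by the authors to mapped reads and rounded. Since they are not read counts, no count model was used. All 8 columns of the table were used. Of the 10 samples, 2 (H3K4me2 of rd1/rd1 retina at PN30 and anti-GFP at PN56) were not analysed here. The header of the PN7 column of H3K27me3 has an added letter b.

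Each mark and stage was 1 library, so no test, SD or replicate check was possible. The value of 1 read was fitted to the histogram of whole numbers from 5 to 80 in each column. On simulated columns it was recovered in 32 of 32 with a value between 0.25 and 1, and no value was given in 16 of 16 with a value of 1 or 0.06. A change used a pseudocount of 1 and was centred on the median symbol. Annotated starts were those of GENCODE for mm9 (NCBIM37), and promoters those of RefSeq for GRCm38.p6, taken as a sequence and not converted. The forkhead genes, role groups, FoxO list and cell type markers were chosen with earlier results of these data known. Of the family 1 gene, and of the retinal markers 1, are not reported here, and all counts leave them out. All other genes of the family were named. Their 4 values of each mark are given for the 8 with the largest mean of each mark, up to 5 with the largest called rise and fall of each mark, those with neither mark and Foxd1, and for paralogues or neighbours set beside them. Alternatives were other backgrounds, pseudocounts, centrings, filters, folds and entries. Python 3.11.15, numpy 2.4.6, pandas 2.3.3, scipy 1.17.1 and matplotlib 3.10.9 were used.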

Additional observations from a re-analysis of the deposited data

How the results depend on the processing

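No paired analysis was possible because each mark and stage had 1 library, and for the same reason no library could be left out of a group. Counts are called alike below when they lay within 1.5 times of each other. The numbers of genes carrying H3K4me2, H3K27me3 or both marks and the number among the top 5.0% for H3K27me3 were alike under every alternative tried for them, including the top 10% and 2.5% of symbols and the marks without the H3K4me2 library of PN7, which were chosen after seeing the data. The small classes moved. With the 99th percentile of olfactory receptors as background, 0 genes had H3K27me3 only and 7 neither mark, since Foxn1, Foxn3, Foxp1 and Foxr2 each lost their mark, while Foxs1 lost H3K27me3 and kept H3K4me2. With vomeronasal receptors as background, 7 had H3K4me2 only, 3 H3K27me3 only and 1 neither mark.

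For H3K27me3 from E17.5 to PN15, centring on the symbols carrying the mark gave 3 genes lower, 3 higher and a median change of -0.61, and from PN7 to PN15 1 lower. Centring on the top 5.0% of symbols, chosen after seeing the data, gave 0 lower, 5 higher and a median change of 0.08, so that the direction of the median turned. Without a filter 2 were higher from E17.5 to PN15, 2 lower and 1 higher from E17.5 to PN1, 1 higher from PN1 to PN7 and 2 higher from PN7 to PN15. At 1.5-fold, 2 were higher from E17.5 to PN15, 6 higher from E17.5 to PN1, 5 lower and 1 higher from PN1 to PN7 and 22 lower from PN7 to PN15. At 3-fold, 3 were lower from E17.5 to PN15 and 1 lower from PN7 to PN15.

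For H3K4me2 from E17.5 to PN15, the number higher was 1 with a pseudocount of 5, with centring on symbols carrying the mark, with libraries rescaled to the same sum and with the 99th percentile filter, and was 4 at 1.5-fold and 0 at 3-fold, where 6 were lower. Without centring the median change was -0.19. From E17.5 to PN1, the number lower was 1 with a pseudocount of 5 or centring on carrying symbols, 9 without centring or at 1.5-fold and 0 at 3-fold, and the number higher was 1 with a pseudocount of 5, the 99th percentile filter or 3-fold and 5 without a filter. From PN1 to PN7, the number lower was 0 with a pseudocount of 5, 1 with the 99th percentile filter or 3-fold and 8 without a filter, and the number higher was 6 without centring or at 3-fold, 9 with centring on carrying symbols and 26 at 1.5-fold. From PN7 to PN15, the number lower was 6 without centring and 9 at 3-fold, and the number higher was 6 without centring, 0 with a pseudocount of 5 or the 99th percentile filter, 1 with rescaled libraries and 4 without a filter. Of 420 recomputed changes of single genes, 397 lay within their counting interval, 23 outside it and 0 called changes turned their sign. Of the 23, 22 were H3K27me3 changes centred on carrying symbols, and the other was Foxp2 in H3K4me2, at -0.85 with the mean over its entries. Depth limits the genes near 0, where 3 reads were worth between 0.939 and 3.0 units.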
